A study of Homo sapiens with 18 samples.

Results

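The genes described here are MCM2, MCM3, MCM4, MCM5, MCM6, MCM7, MCM10, CDC6, CDT1 and CDC45, which license replication origins or turn licensed origins into replication forks. They were taken by gene symbol and make up 10 of the 23622 genes in the count table, and all 10 were among the 15760 genes kept for testing, a filter by edgeR having removed those with few counts. In late mitosis and G1, the origin recognition complex, CDC6 and CDT1 load the ring-shaped MCM2-7 complex onto DNA, and this loading is what licenses an origin to fire in the coming S phase. At the start of S phase, CDC45 and the GINS proteins join MCM2-7 and form the active helicase, and MCM10 helps the helicase start to unwind DNA. CDT1 is destroyed once S phase begins and after DNA damage, CDC6 is turned over through the cell cycle, and E2F transcription factors drive transcription of many of these genes as cells approach S phase.

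RNA was sequenced from 2 human cell lines. A2780 is a cisplatin-sensitive ovarian cancer line, and Acis (A2780cis) is its cisplatin-resistant derivative, in which resistance is maintained with 1 µM cisplatin every 3 passages, so both Acis groups share that history of exposure. Each line was left untreated (control) or kept in 200 µM cisplatin for 3 h, with 3 libraries in each of the 4 groups, and 1 list of ATAC-seq peaks, a map of accessible chromatin, was used for each condition. The methods describe triplicate wells, so the p-values measure at most the spread between wells and not between independent cultures.

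The libraries held 4130644 to 5072216 counts. In 7 of 12 pairs of replicates the libraries differed by less than the counting noise, at a ratio of 0.748 to 1.45 over all pairs. The common dispersion of edgeR, a measure of spread beyond counting noise, was 0.000304. The p-values therefore rest largely on counting noise, with little spread between wells in them. The label of an ovarian cancer line was checked against markers. Of 8 epithelial and ovarian carcinoma markers, 3 had rows, and KRT19, CDH1, PAX8, WT1 and MUC16 had none. Every gene with a row had at least 10 counts over the 12 libraries. EPCAM had 2 to 6 reads in A2780 libraries and 0 to 1 in Acis libraries, KRT8 had 12 to 26 and 2 to 8, and KRT18 had 19 to 41 and 124 to 155. The summed level of these markers was 7.29 to 14.5 CPM (reads relative to the total of the library) over A2780 libraries and 28.6 to 33.9 CPM over Acis libraries, where KRT18 was the only marker of the 3 with more reads. All 6 fibroblast markers had rows, with a summed level of 750 to 968 CPM in A2780 libraries and 750 to 854 CPM in Acis libraries. In Acis this sum came almost wholly from COL3A1 with 3390 to 3749 reads, since COL1A2 had at most 1 read, COL1A1 at most 21 and PDGFRA at most 20 reads there, against at least 576, 629 and 650 reads in A2780 libraries. Of 5 immune markers, CD14 and CD68 had rows with at most 7 reads, and the 4 endothelial markers had no rows. The part of these marker levels in the differences between the lines was not tested. In bulk RNA, fewer cells expressing a gene cannot be told apart from less RNA per cell, and for genes of the cell cycle the same holds for the share of cells in each phase.

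Levels were compared between genes as normalized counts per kb of the canonical transcript, normalized counts being counts scaled to the mean library size with edgeR's TMM factors. In A2780 control, MCM7, a subunit of the MCM2-7 ring, had the highest level among the 10 genes at 481 ± 5.71 normalized counts per kb (SD, n = 3). It was followed by MCM4 at 376 ± 5.99 and MCM3 at 375 ± 8.09, whose libraries overlapped, then by MCM2 at 357 ± 7.13, MCM5 at 301 ± 4.78 and MCM6 at 268 ± 8.51 normalized counts per kb. In this group the 6 subunits of the ring thus stood above the 4 genes that act beside it. Among those, CDT1 with 197 ± 11.05, CDC45 with 187 ± 9.38 and MCM10 with 184 ± 4.79 normalized counts per kb overlapped with their neighbours in the order, and CDC6 was lowest with 156 ± 3.97. MCM7 was highest and CDC6 lowest in the other 3 groups too, though CDC6 overlapped with MCM10 in A2780 cisplatin. In those groups CDT1 overlapped with the lowest ring subunit. This was MCM6 in A2780 cisplatin and Acis cisplatin and MCM5 in Acis control. The order depends on the transcript assumed: per kb of the union of all annotated exons, MCM3 led in A2780 control with 316 normalized counts per kb, MCM7 had 239, CDT1 stood above MCM4 and MCM5, and CDC45 was lowest with 118.

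The 10 genes together took up 0.200% to 0.202% of all counts in A2780 control libraries, 0.225% to 0.227% in A2780 cisplatin libraries, 0.199% to 0.206% in Acis control libraries and 0.209% to 0.214% in Acis cisplatin libraries. Their levels were steady from library to library, in counts made after duplicate reads had been removed. The part of that removal in the levels, their spread and the size of changes was not tested. The ratio of the highest to the lowest of the 12 normalized counts was 1.09 for MCM3 and 1.10 for MCM2, MCM4 and CDC6, and it reached 1.29 for MCM5 and 1.40 for CDT1. CDT1 and MCM5 were thus the 2 genes that varied most over the 12 libraries, CDT1 by being low in A2780 control and MCM5 by being low in both Acis groups, as the plot of normalized counts shows.

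**Figure D1:**
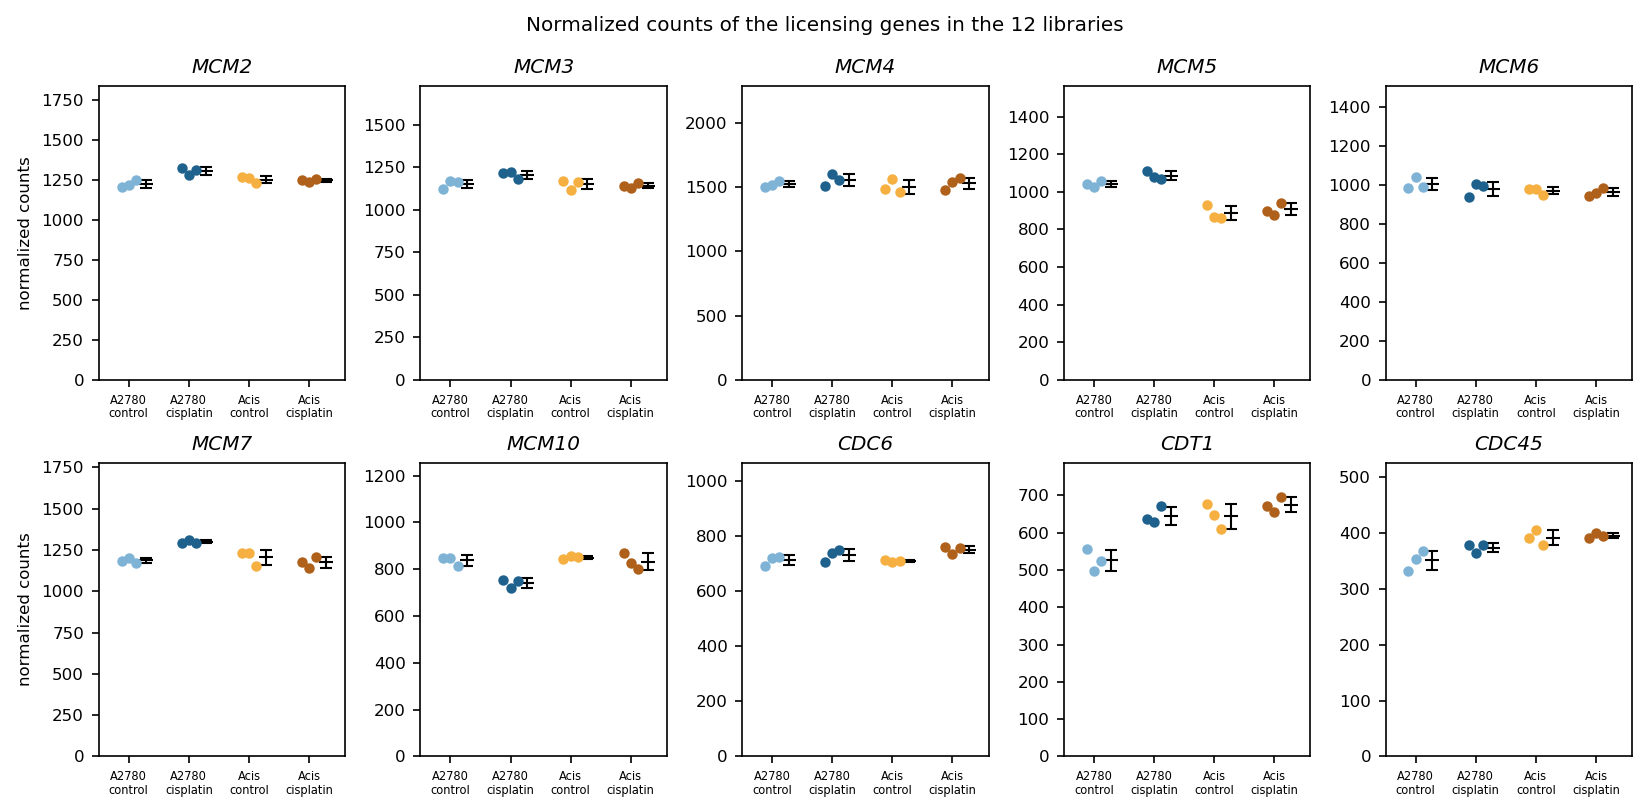
Normalized counts of the 10 licensing genes. Each dot is a library, with 3 per group on the horizontal axis, and the bar beside the dots gives the mean and SD, with the vertical axis starting at 0. CDT1 is lowest in the 3 A2780 control libraries (496 to 555), MCM10 is lowest in the 3 A2780 cisplatin libraries (718 to 755), and MCM5 is lower in the 6 Acis libraries (864 to 941) than in the 6 A2780 libraries.

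The starts of these genes lay in accessible chromatin, with CDT1 as the exception. A peak lay within 1 kb of the annotated gene start for 10 of 10 genes in A2780 control, A2780 cisplatin and Acis cisplatin and for 9 of 10 in Acis control, where 69.3%, 70.4%, 67.0% and 63.0% of tested genes with an annotation had such a peak. Among the 10 genes, fold enrichment over the local background, as MACS2 gives it, was highest at MCM10 in all 4 lists. It was 27.3 in A2780 cells before and 26.0 after cisplatin, and 30.7 in Acis cells before and 32.1 after cisplatin. In each list, 99.7% to 99.9% of the peaks had a fold enrichment no higher than that at MCM10. MCM3 came next, with 24.8 and 23.7 in A2780 and 26.5 and 28.4 in Acis in the same order, and CDC6, with 21.5, 19.5, 25.2 and 25.7. The summits of the highest peaks at all genes but CDT1 lay between 54 and 200 bp upstream of the start of the canonical transcript.

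No peak covered the start of CDT1 in any of the 4 lists. In A2780 control the nearest peak, chr16:88802811-88803427, had its summit 700 bp upstream of the start and a fold enrichment of 3.23. In A2780 cisplatin the peak was chr16:88804419-88805331, with a summit 970 bp downstream and a fold enrichment of 3.43, and in Acis cisplatin it was chr16:88804500-88805578, with a summit 916 bp downstream and a fold enrichment of 4.48. Of all peaks in the respective lists, 1.65%, 2.30% and 5.69% were as low or lower. With 1 peak list per condition, these differences have no replicate check, and the peak lists carry no read depth. The lists also differ as a whole: the median fold enrichment of the highest peak at the starts of all tested genes that had a peak was 14.7 before and 11.5 after cisplatin in A2780, and 16.9 before and 15.7 after it in Acis.

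**Figure D2:**
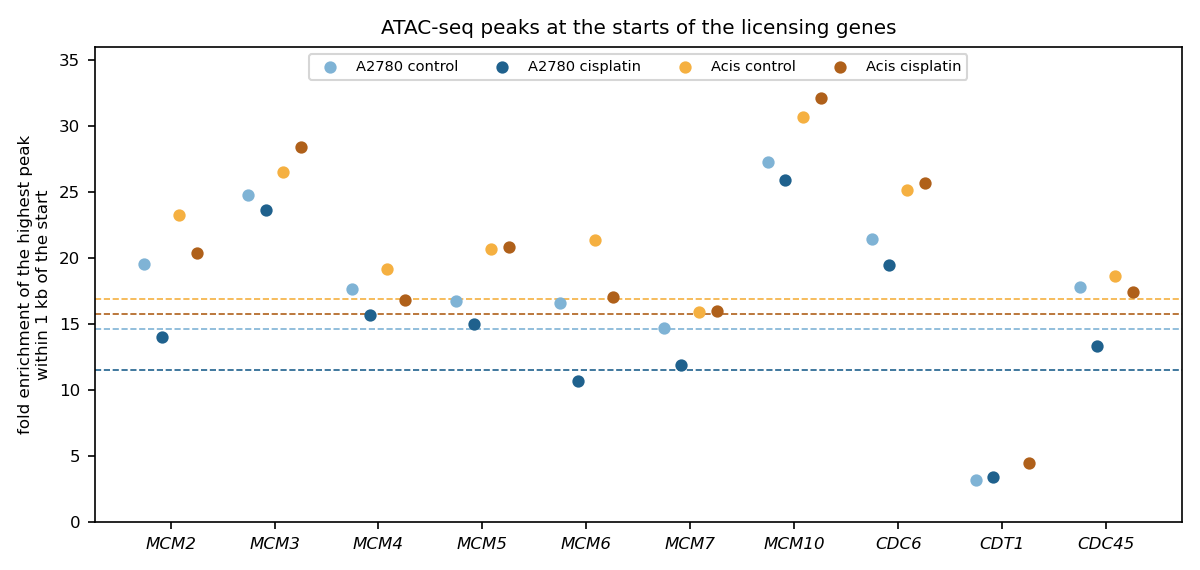
Fold enrichment (vertical axis) of the highest ATAC-seq peak within 1 kb of the start of each licensing gene, 1 dot per condition. Dashed lines give the median over all tested genes with a peak in the same list. MCM10 is highest in every list (26.0 to 32.1), CDT1 is lowest wherever it has a peak (3.23 to 4.48), and no dot is drawn for CDT1 in Acis control, which had no peak in the window.

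Promoter sequences came from RefSeq on GRCh38.p14, whose table held 8 of the 10 genes and not MCM4 and MCM5. In the 300 bp around the start, 250 bp before and 50 bp after it, letters that E2F factors are known to bind were searched on both strands, as the 8-letter forms TTTCCCGC, TTTCGCGC, TTTGCCGC and TTTGGCGC and as the 7-letter form GGCGGGA, which can overlap them. The motifs were chosen with the sequences of the promoters in view. An 8-letter form was found in 6 of the 8 promoters (MCM2, MCM3, MCM6, MCM7, CDC6 and CDT1) and in 3.31% of the 35116 promoters of the table. GGCGGGA was found in 6 of the 8 and in 15.4% of all, and at least 1 of the forms in 8 of the 8 and in 17.3% of all. CCAAT, in either direction, was found in 6 of the 8 and in 34.6% of all, and not in the windows of MCM2 and CDT1. The window of CDT1 had 74.3% G and C, against a median of 58.7% over all promoters. The 160 bases before the start are shown for the 2 genes whose counts moved most after cisplatin in A2780, CDT1 upward and MCM10 downward, and for CDC6 and MCM6, which changed little. Capitals mark E2F forms and CCAAT or its reverse complement ATTGG, and the strand shown is that of the gene.

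CDT1 (chr16:88803629-88803788, plus strand): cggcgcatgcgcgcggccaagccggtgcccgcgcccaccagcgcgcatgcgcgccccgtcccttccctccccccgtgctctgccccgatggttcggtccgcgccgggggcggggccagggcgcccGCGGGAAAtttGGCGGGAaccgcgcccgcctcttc

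MCM10 (chr10:13161398-13161557, plus strand): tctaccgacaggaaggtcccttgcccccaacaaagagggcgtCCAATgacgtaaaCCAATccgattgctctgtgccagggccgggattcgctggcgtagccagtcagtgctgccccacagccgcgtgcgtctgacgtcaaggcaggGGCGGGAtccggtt

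CDC6 (chr17:40287719-40287878, plus strand): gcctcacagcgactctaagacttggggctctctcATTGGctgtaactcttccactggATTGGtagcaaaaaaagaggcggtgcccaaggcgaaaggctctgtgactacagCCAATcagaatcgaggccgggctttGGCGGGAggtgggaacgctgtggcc

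MCM6 (chr2:135876444-135876603, minus strand): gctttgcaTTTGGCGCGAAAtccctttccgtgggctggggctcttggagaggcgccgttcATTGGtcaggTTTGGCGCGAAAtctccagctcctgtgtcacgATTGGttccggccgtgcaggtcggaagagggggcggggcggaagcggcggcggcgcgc

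In CDT1 an E2F form on each strand lay within the last 35 bases before the start. In MCM6 the stretch TTTGGCGCGAAA, which reads as an E2F form on both strands, stood at 2 places, and MCM10 had GGCGGGA alone among the E2F forms, next to 2 CCAAT boxes further upstream. A match of letters is a description of the sequence and not a measured binding site.

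The first question was how cisplatin changed these genes in the sensitive line. In A2780 cells, CDT1, MCM7 and MCM2 rose and MCM10 fell, and the other 6 genes did not pass the test. All of these changes were small, and no gene of the 10 changed 2-fold, as 5.62% of all tested genes did. Counts are relative to the other RNA of each library, so a rise or fall need not be a change in amount per cell. CDT1, the loading factor that brings MCM2-7 to the origin, had normalized counts of 555, 496 and 525 in the control libraries and of 636, 627 and 673 in the cisplatin libraries. The groups did not overlap, and every treated library stood above every control library. The fold was 1.23 (95% interval 1.14 to 1.32), or 0.30 ± 0.05 (SE) on the log2 scale, and the adjusted p was 2.07e-05 by edgeR's quasi-likelihood test, adjusted by the Benjamini-Hochberg method over 15760 genes as everywhere below. It was the largest change of the 10 genes in this comparison.

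MCM7, the ring subunit with the highest level per kb, had 1184, 1202 and 1174 normalized counts in control and 1294, 1311 and 1295 in cisplatin libraries. Its 3 treated libraries lay close together and above all controls. Its log2 fold change was 0.13 ± 0.03 (SE), with a 95% interval of 0.06 to 0.20 and an adjusted p of 0.00223. MCM2, another ring subunit, had 1206, 1221 and 1254 normalized counts in control and 1328, 1280 and 1313 after cisplatin, again without overlap. Its fold of 1.07 (1.02 to 1.12) had an adjusted p of 0.0185, and this call was lost in 7 of 20 alternatives, DESeq2 among them. It was lost without A2780 control replicate 1 or 2 and without A2780 cisplatin replicate 1 or 3, at log2 fold changes between 0.07 and 0.11 over the left-out libraries.

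MCM10 moved the other way. Its normalized counts were 850, 850 and 812 in control and 755, 718 and 749 in cisplatin libraries, so that every treated library was below every control. The log2 fold change of -0.18 ± 0.04 corresponded to a fold of 0.884 (0.834 to 0.937) with an adjusted p of 0.000700. When libraries were scaled by their total counts in place of TMM, which moved the median of all genes from -0.01 to 0.10 on the log2 scale, MCM10 stayed lower, at -0.06, and no longer passed, with an adjusted p of 0.221.

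Of the ring subunits that did not pass, MCM3 with log2 fold changes of 0.07 and MCM5 with 0.06 had groups that did not overlap, while MCM4 with 0.03 and MCM6 with -0.04 overlapped. MCM6 was the only ring subunit with a negative value, which turned to 0.08 with total-count scaling. CDC45 had a log2 fold change of 0.09 with an interval from -0.02 to 0.20, and CDC6, the partner of CDT1 in loading, had 0.04 with an interval from -0.04 to 0.12. The intervals of all 6 genes that did not pass lay within -0.12 and 0.20.

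In all, 4 of 10 genes passed, 3 of them higher and 1 lower, where 49.5% of all tested genes passed, 21.2% higher and 28.2% lower. The groups did not overlap for 6 of 10 genes, against 57.3% of all tested genes. The median log2 fold change of the 10 genes was 0.06, with 8 of 10 above 0, and that of all tested genes was -0.01. The median of the absolute log2 fold change was 0.08 for the 10 genes and 0.25 for all tested genes. Here and below, such medians were not matched for read count, and genes with few reads scatter more. With total-count scaling 8 of the 10 genes were higher and none lower, while the median of all tested genes also rose, to 0.10. The share of all tested genes that passed with that scaling was not computed.

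**Figure D3:**
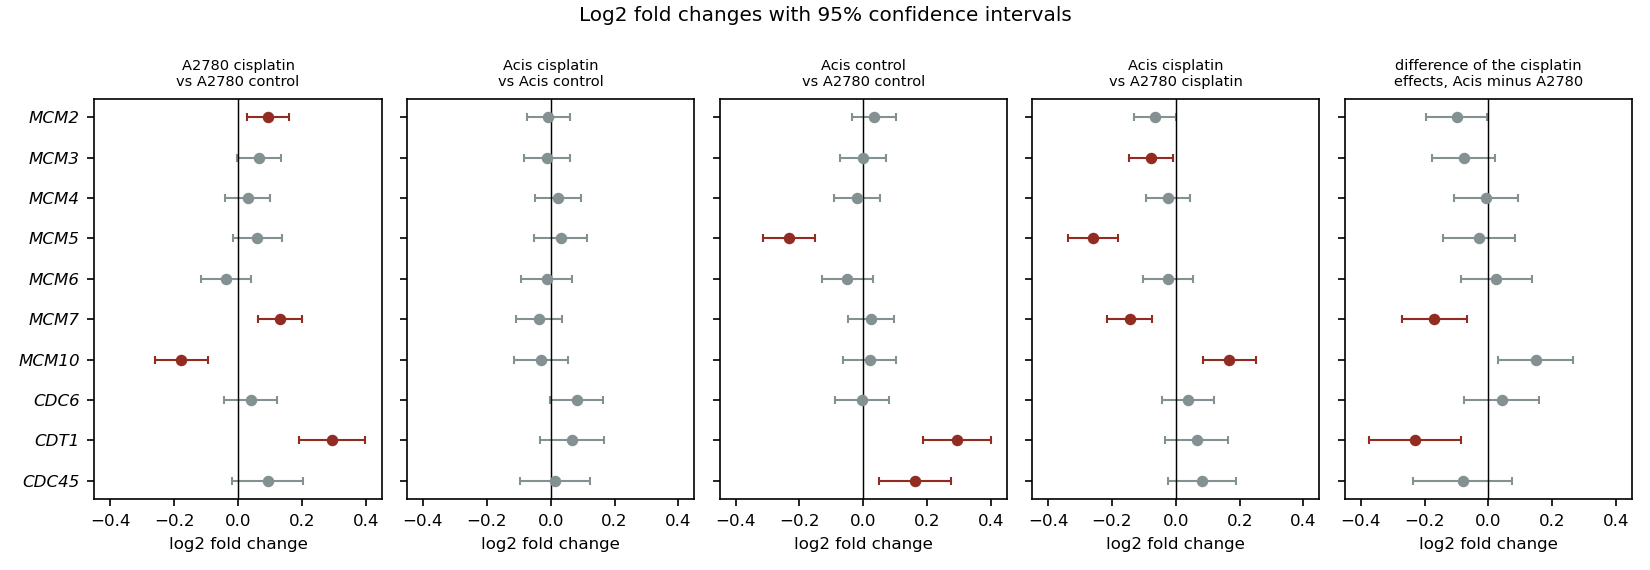
Log2 fold changes of the 10 licensing genes (rows) in the 4 comparisons of groups and for the difference of the cisplatin effects (panels), with 95% confidence intervals from edgeR as bars. Red marks an adjusted p under 0.05 and grey the rest. CDT1 stands at 0.30 after cisplatin in A2780 and at 0.07 in Acis, and MCM5 is at -0.23 and -0.26 where Acis is compared with A2780.

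In the resistant line, no licensing gene changed detectably with TMM scaling, and CDC6 alone passed with total-count scaling. With the same treatment, 0 of 10 genes passed in Acis by edgeR, 0 had an unadjusted p under 0.05 and DESeq2 called 0, where 21.8% of all tested genes passed, 9.35% higher and 12.4% lower, and 2.01% changed 2-fold. The log2 fold changes ran from -0.04 for MCM7 to 0.08 for CDC6, and their median was 0.00, against 0.01 for all tested genes. The absolute values had a median of 0.03, against 0.14 over all tested genes.

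CDC6, an ATPase that works with the origin recognition complex in loading MCM2-7, had 711, 707 and 709 normalized counts in Acis control and 758, 735 and 756 in Acis cisplatin libraries. The 3 control libraries lay close together, with an SD of 2.04, and all treated libraries lay above them. The fold of 1.06 (0.998 to 1.12) had an adjusted p of 0.193. With total-count scaling CDC6 passed in edgeR's test, at a log2 fold change of 0.14 and an adjusted p of 0.0144. It was the only gene of the 10 whose groups did not overlap in Acis, where 34.2% of all tested genes had such groups.

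CDT1 had 676, 646 and 609 normalized counts in Acis control and 673, 656 and 695 in Acis cisplatin. The groups overlapped, at a fold of 1.05 (0.976 to 1.12). MCM10 had 844, 856 and 850 in control and 871, 825 and 800 in cisplatin libraries, with the treated libraries on both sides of the controls and a fold of 0.979 (0.924 to 1.04). MCM7 had 1234, 1229 and 1154 in control and 1177, 1142 and 1209 in cisplatin libraries, at a fold of 0.974 (0.927 to 1.02). The upper bound for CDT1 thus stayed below its lower bound in A2780 of 1.14, and the upper bound for MCM7 below its 1.04.

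Whether the cisplatin effect differed between the lines was tested as an interaction. CDT1 and MCM7 passed, both with a smaller change in Acis. For CDT1 the difference of the log2 fold changes, Acis minus A2780, was -0.23 ± 0.07 with an adjusted p of 0.0221, and for MCM7 it was -0.17 ± 0.05 with an adjusted p of 0.0162. Over all tested genes 18.9% passed, 13.4% with a higher and 5.48% with a lower value in Acis. MCM10 had a difference of 0.15 ± 0.06 with an adjusted p of 0.0743 and did not pass, so its fall in A2780 was not shown to differ from its course in Acis, although it passed without Acis cisplatin replicate 3. MCM2 had -0.10 ± 0.05 with an adjusted p of 0.139. Both calls depended on the libraries and the tool. Without Acis cisplatin replicate 2 neither passed, without A2780 control replicate 2, A2780 cisplatin replicate 3 or Acis control replicate 1 CDT1 did not pass, with merged replicates or DESeq2 none of the 10 passed, and without the filter on low counts MCM7 did not pass. The direction was kept in all alternatives, with log2 differences of -0.29 to -0.18 for CDT1 and -0.23 to -0.14 for MCM7.

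The untreated lines were compared next, to see which of these genes differed in the resistant line before treatment. CDT1 and CDC45 were higher and MCM5 lower in Acis, so 3 of 10 genes passed, where 58.9% of all tested genes did, 28.2% higher and 30.6% lower. The groups did not overlap for 4 of 10 genes, against 64.2% of all tested genes. None was 2-fold apart, against 19.1% of all tested genes. CDT1 stood at 676, 646 and 609 normalized counts in Acis control against 555, 496 and 525 in A2780 control, with a fold of 1.23 (1.14 to 1.32) and an adjusted p of 1.72e-05. The level of untreated Acis cells, 644 ± 33.3 (SD, n = 3), was near that of treated A2780 cells, 645 ± 24.2. The rise of CDT1 in A2780 and its higher level in untreated Acis cells were both computed against the same 3 A2780 control libraries.

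MCM5, a ring subunit, had 928, 866 and 864 normalized counts in Acis control against 1040, 1027 and 1059 in A2780 control. No libraries overlapped, and the fold was 0.851 (0.805 to 0.901) with an adjusted p of 1.14e-05. CDC45, the helicase cofactor, had 392, 405 and 378 in Acis control against 332, 353 and 367 in A2780 control. Its fold of 1.12 (1.04 to 1.21) had an adjusted p of 0.0167, which was lost with DESeq2, with merged replicates and without A2780 control replicate 1 or Acis control replicate 1 or 2. The other 7 genes had log2 differences between -0.05 and 0.03. The median absolute log2 difference was 0.03 for the 10 genes and 0.31 for all tested genes.

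After cisplatin, Acis cells had less MCM5, MCM7 and MCM3 and more MCM10 than A2780 cells, and 4 of 10 genes passed, where 63% of all tested genes did, 31.8% higher and 31.2% lower. The groups did not overlap for 6 of 10 genes, against 66.7% of all tested genes, and 0 of 10 were 2-fold apart, against 19.2%. MCM5 had 901, 878 and 941 normalized counts in Acis cisplatin against 1111, 1079 and 1066 in A2780 cisplatin, a fold of 0.835 (0.791 to 0.881) with an adjusted p of 1.11e-06. This is close to its fold between the untreated lines, and the interaction for MCM5 was -0.03 with an interval from -0.14 to 0.08. MCM7 was lower in treated Acis cells at a fold of 0.905 (0.862 to 0.950, adjusted p of 0.000592), and MCM10 higher at 1.12 (1.06 to 1.19, adjusted p of 0.000781). MCM3 had a fold of 0.947 (0.903 to 0.994) with an adjusted p of 0.0443, a call that was lost in 8 of 20 alternatives. Among these were DESeq2 and the fits without A2780 cisplatin replicate 1 or 2 or without any of the 3 Acis cisplatin replicates. For CDT1 the interval of the fold, 0.978 to 1.12, included 1, so the lines were not shown to differ once both were treated.

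In A2780 the log2 fold change tended to be lower in longer genes of the 10, but the direction did not follow length throughout. The value was above 0 for 8 of the 10 genes, among them CDC45, which spans 41156 bp and had 0.09. CDT1, which spans 5470 bp, had the highest and MCM10, which spans 49553 bp, the lowest log2 fold change after cisplatin in A2780. Over the 10 genes, which share their libraries, the log2 fold change and the log10 length had a Pearson r of -0.82 and a Spearman rho of -0.55 in A2780, and of -0.42 and -0.36 in Acis. Over all tested genes, the medians of the length classes also fell with length. In A2780 the median log2 fold change was 0.22 for the 3870 genes of 1 to 10 kb, 0.09 for the 3816 of 10 to 30 kb and -0.15 for the 4385 of 30 to 100 kb. In Acis these medians were 0.09, 0.07 and -0.02. Of the genes of 1 to 10 kb, 43.8% passed as higher in A2780, and of those of 30 to 100 kb 44.1% passed as lower. As the plot against length shows, CDT1 with 0.30 lay above the median of its length class, 0.22. MCM10 with -0.18 lay below that of its class, -0.15. CDC45, at 41156 bp, and MCM6, at 36818 bp, lay above the median of theirs. MCM7, at 9708 bp, lay below the median of its class, 0.22, with 0.13. The part of length in these changes was not tested.

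**Figure D4:**
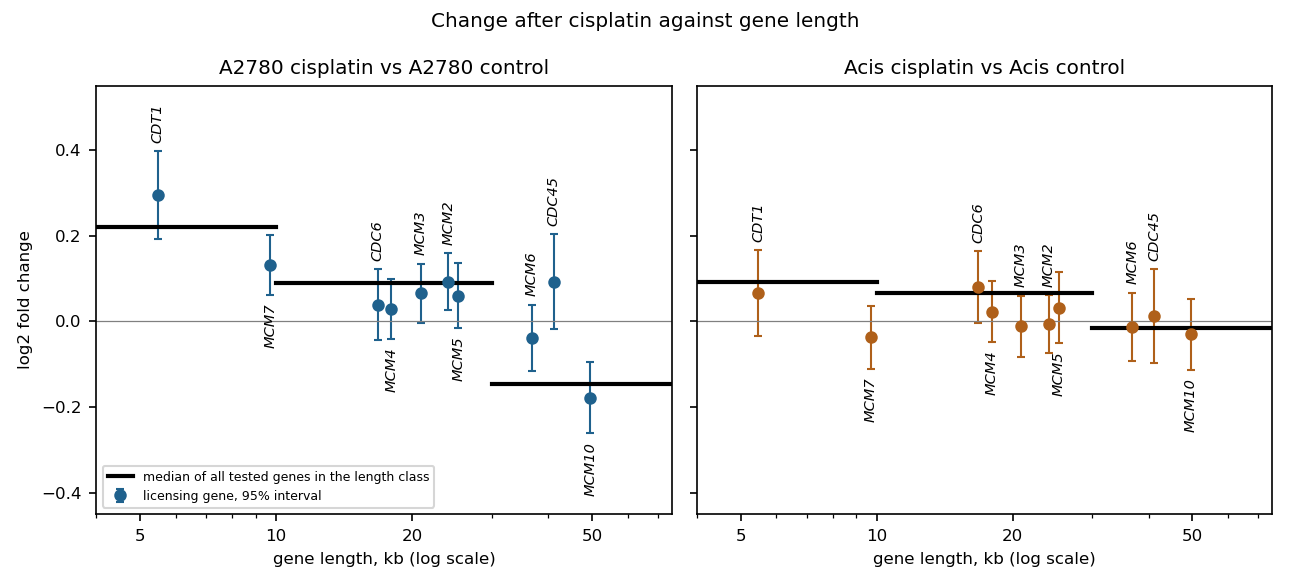
Log2 fold change after cisplatin (vertical axis) against gene length in kb (horizontal axis, log scale) in A2780 (left) and Acis (right). Dots are the 10 licensing genes with 95% confidence intervals, and black lines are the medians of all tested genes of 1 to 10, 10 to 30 and 30 to 100 kb. In A2780 CDT1 (0.30) and MCM10 (-0.18) lie at the short and long ends, and in Acis all 10 genes lie between -0.04 and 0.08.

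Several licensing genes share their start region with a gene on the opposite strand, and the reads were counted by strand. MCM4 and PRKDC, which encodes the catalytic subunit of the DNA-dependent protein kinase, start 7 bp apart. PRKDC spans 187068 bp and went from 5047 ± 1.48 to 3649 ± 73.3 normalized counts in A2780 (SD, n = 3), or -0.47 on the log2 scale (adjusted p of 1.61e-14), and had -0.29 in Acis (adjusted p of 5.05e-10), while MCM4, which spans 17976 bp, had 0.03 and 0.02. TPRA1, whose start is 143 bp from that of MCM2, rose by 0.36 on the log2 scale in A2780 with an adjusted p of 0.000210, against 0.09 for MCM2. AP4M1, 391 bp from MCM7 and overlapping it, rose by 0.33 in A2780 with an adjusted p of 0.00163, against 0.13 for MCM7. UFD1, 255 bp from CDC45, had 0.03 after cisplatin in A2780 and did not pass, and was higher in Acis control than in A2780 control by 0.21 with an adjusted p of 0.000721, against 0.16 for CDC45.

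Other genes of replication were read from 5 lists. Their counts stand beside shares over all tested genes of 21.2% higher and 28.2% lower after cisplatin in A2780, 9.35% and 12.4% in Acis, and 28.2% and 30.6% between the untreated lines. The origin recognition complex and partners of licensing had 0 of 10 genes higher and 7 lower after cisplatin in A2780, with a median log2 fold change of -0.17. With total-count scaling these counts became 3 and 4. ORC2, a subunit of the origin recognition complex, had -0.28 ± 0.05 with an adjusted p of 1.86e-05, ORC4, another subunit, had -0.35 ± 0.07 with an adjusted p of 0.000293, and MCM9, a relative of the MCM ring proteins that acts in recombination, had -0.49 ± 0.10 with an adjusted p of 0.000328. In Acis, 1 was higher, ORC6 by 0.21, and 1 lower, MCM9 at -0.28, which did not pass with total-count scaling (adjusted p of 0.108). The interaction passed for ORC4 and ORC2, both with positive differences, of 0.39 and 0.20, but ORC2 did not pass with DESeq2's size factors (adjusted p of 0.0704) or total-count scaling (0.187). Between the untreated lines MCM8, the partner of MCM9, was higher in Acis by 0.55 with an adjusted p of 9.45e-10, and 2 of 10 genes were higher and 5 lower.

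Of 13 origin firing genes, 3 were higher and 8 lower after cisplatin in A2780, with 4 and 4 under total-count scaling. TICRR, needed to bring CDC45 to the origin, had 719 ± 16.4 normalized counts before and 532 ± 22.1 after cisplatin in A2780, and 894 ± 17.2 before and 682 ± 34.8 after it in Acis, with log2 fold changes of -0.44 and -0.39 and adjusted p values of 1.44e-08 and 1.30e-07. In Acis 3 of the 13 were higher and 1 lower, with 2 and 2 under DESeq2's size factors and 5 and 1 under total-count scaling. The higher genes included GINS2 by 0.21 and GINS4 by 0.17, subunits of the complex that joins CDC45 and MCM2-7. Between the untreated lines RECQL4, a helicase, was higher in Acis by 0.73 and CDC7, the kinase that phosphorylates MCM2-7 at firing, was lower, at -0.70, with adjusted p values of 3.40e-11 and 6.32e-11.

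Of 26 replication fork genes, 5 were higher and 7 lower after cisplatin in A2780, and 12 and 2 with total-count scaling. Their median log2 fold change went from -0.002 to 0.115 with that scaling, and that of all tested genes from -0.011 to 0.104. RFC1, the large subunit of the clamp loader, had -0.28 and POLA1, the catalytic subunit of DNA polymerase alpha, had -0.25, with adjusted p values of 8.61e-07 and 2.64e-05. In Acis 1 was higher and 3 lower, with LIG1, the DNA ligase that joins Okazaki fragments, at -0.17. With total-count scaling 4 were higher and 0 lower in Acis, and LIG1 did not pass (adjusted p of 0.0885). Between the untreated lines 4 were higher and 9 lower in Acis, led by TIMELESS at -0.67, POLD3 at -0.80 and RFC3 at -0.76, whose adjusted p values were 7.47e-14, 1.27e-12 and 2.05e-12.

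Of 21 genes of E2F and RB control, 7 were higher and 6 lower in A2780, and 6 higher and 0 lower in Acis, with 11 and 5, and 9 and 0, under total-count scaling. CDKN1A, the inhibitor of cyclin-dependent kinases also called p21, rose from 531 ± 6.72 to 957 ± 11.3 normalized counts in A2780, and in Acis it rose from 152 ± 2.62 to 269 ± 25.7. Its log2 fold changes of 0.85 and 0.82 had adjusted p values of 1.27e-14 and 9.56e-09, and it was lower in Acis control than in A2780 control, at -1.80 on the log2 scale. RB1, the retinoblastoma protein, had -0.61 and RBL1, its relative p107, had -0.60 after cisplatin in A2780. CCNE2, a cyclin of the start of S phase, had 213 ± 3.12 and 210 ± 14.3 normalized counts in A2780 control and cisplatin libraries, against 294 ± 17.5 and 382 ± 16.6 in those of Acis, and the difference of its effects, 0.40, had an adjusted p of 0.00340. Of 7 genes for turnover of licensing proteins, 0 were higher and 4 lower in A2780, with 1 and 2 after total-count scaling, and in Acis 0 and 1, or 0 and 0 with total-count scaling. DTL, the part of the CUL4-DDB1 ligase that recognises CDT1, had -0.17 in A2780 with an adjusted p of 0.00107 and 0.06 in Acis, which did not pass, and the difference of 0.23 had an adjusted p of 0.00851. With total-count scaling neither value passed, with adjusted p values of 0.291 in A2780 and 0.0547 for the difference. DTL was also lower in Acis control than in A2780 control, at -0.34 with an adjusted p of 1.13e-07. Between the untreated lines, 5 of the 21 genes of E2F and RB control were higher and 8 lower in Acis. Of the 7 turnover genes, 3 were higher and 4 lower there.

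Across the 12 libraries, the 5 other genes with at least 100 normalized counts whose profile was most like the mean standardized profile of the 10 genes were PRDX1 (Pearson r of 0.92), EIF4A3 (0.90), LRWD1 (0.90), ZWINT (0.90) and PHB2 (0.89). The values were computed over single libraries, which fall into 4 groups, and come with no test. They mix differences between groups with those inside a group, where the mean profile was -0.72, -0.14 and -0.12 in A2780 control. LRWD1, also called ORCA, associates with the origin recognition complex, and it had 481 ± 25.6 normalized counts before and 582 ± 6.30 after cisplatin in A2780, and 507 ± 27.7 before and 531 ± 21.8 after it in Acis. The profile was not shared by all members, although each is itself part of the mean, which raises its r. MCM2 and MCM7 had an r of 0.81 with the profile, MCM5 0.39, CDC45 0.33, MCM6 0.20 and MCM10 -0.76.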

How the data were processed

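As deposited by the authors, the RNA-seq table holds raw counts per gene from stranded, ribosomal RNA-depleted libraries, made with STAR 2.7.3 on hg38, removal of duplicates with Picard and htseq-count 0.11.1 with reverse strandedness. The authors deposited ATAC-seq peaks of MACS2 as 1 list per condition, after selection for overlap between replicates. Each peak has a fold enrichment, -log10 p and -log10 q values and a display score, all deposited as MACS2 wrote them. XR-seq was not analysed here.

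Counts were fitted with edgeR 4.0.16 in R 4.3.3, with TMM factors of 0.965 to 1.05, a model of 4 groups over 12 libraries and quasi-likelihood tests. Genes passed at an adjusted p under 0.05. The methods name DESeq2, and version 1.42.0 served as an alternative, beside other scalings, filters, left-out libraries, a replicate block and, chosen after seeing the data, merged replicates and the length of all exons for levels. The fit was tested on simulated data. Annotation was GENCODE on GRCh38, which holds 23513 of the identifiers. Named genes were all members, the 3 smallest adjusted p values per list and comparison, the 5 most like profiles and, chosen after their values were seen, genes sharing a start with a member. The members and lists were chosen with earlier results of these data known. Depth was 4130644 to 5072216 counts per library. Plots used matplotlib 3.10.9.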

Additional observations from a re-analysis of the deposited data

Results flagged for a closer look

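The effect of cisplatin differed between the lines for 2 of the 10 licensing genes by edgeR's interaction test. For CDT1 the difference of the log2 fold changes, Acis minus A2780, was -0.23 (95% interval -0.37 to -0.09), with 0.30 in A2780 and 0.07 in Acis. For MCM7 it was -0.17 (-0.27 to -0.07), with 0.13 in A2780 and -0.04 in Acis. Neither passed with DESeq2 or without Acis cisplatin replicate 2. MCM7 and CDT1 are also the 2 shortest genes of the 10, and the median difference over all tested genes of 1 to 10 kb was -0.13. The part of length was not tested.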

How the results depend on the processing

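MCM7 and CDT1 after cisplatin in A2780, MCM5 and CDT1 between the untreated lines, and MCM5, MCM7 and MCM10 between the treated lines kept their direction and passed under each of the 20 alternatives run. Scaling by total counts gave 8 licensing genes higher after cisplatin in A2780 in place of 3, and 1 in Acis in place of 0 (CDC6, log2 fold change of 0.14), lowered those lower in A2780 from 1 to 0, and raised the lower genes from 3 to 5 between the treated lines and from 2 to 4 for the difference of the effects. With the libraries of the 2 groups only, 5 genes were higher in A2780, MCM3 and MCM5 added. Between the untreated lines, 1 gene in place of 2 was higher with DESeq2 and with the closest replicates merged, an alternative chosen after seeing the data, and 1 to 2 with a library left out. For the difference of the effects, 1 gene was lower with no filter on low counts, 0 with DESeq2, 0 with merged replicates and 0 to 2 with a library left out, and 0 to 1 were higher, MCM10 without Acis cisplatin replicate 3.

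Replicate numbers were not taken to pair samples, since libraries of the same number deviated together only at correlations of -0.07 to 0.11, and the fit with the replicate number as a block left the counts at 3 higher and 1 lower in A2780, 0 and 0 in Acis, 2 and 1 between the untreated lines, 1 and 3 between the treated lines and 0 and 2 for the difference.

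Log2 values near 0 changed sign without passing, and the cause was not tested. With total counts, MCM6 in A2780 went to 0.079, in Acis MCM2 to 0.0472, MCM3 to 0.0431, MCM6 to 0.0413, MCM7 to 0.0168 and MCM10 to 0.0243, between untreated lines MCM3 to 0.0061 and CDC6 to 0.0044, between treated lines CDC6 to -0.0165, and for the difference MCM6 to -0.0377 and CDC6 to -0.0209. With libraries thinned to 4130644 counts, in Acis MCM2 went to 0.005 and CDC45 to -0.0062, and between untreated lines CDC6 to 0.008. With DESeq2, in Acis MCM4 went to -0.003 and CDC45 to -0.013, and between untreated lines MCM3 to 0.0004. With DESeq2's size factors in edgeR, CDC45 in Acis went to -0.0044. For the difference, MCM4 went to 0.0114 with no filter and to 0.0112 with merged replicates. With a library left out, values in Acis ran from -0.0231 to 0.0002 for MCM2, -0.0298 to 0.0001 for MCM6 and -0.0129 to 0.0305 for CDC45, between untreated lines from -0.0325 to 0.0092 for MCM3, -0.0083 to 0.0393 for MCM7 and -0.0147 to 0.023 for MCM10, between treated lines from -0.0452 to 0.0026 for MCM4, and for the difference from -0.027 to 0.0234 for MCM4, -0.0526 to 0.0122 for MCM5 and -0.0035 to 0.046 for MCM6. With 332 to 1659 reads per licensing gene and library, the standard errors of the log2 values were 0.03 to 0.08, so changes within these errors were not detectable.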
